A study of Xenopus laevis with 9 samples.

Results

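Galectins, fucolectins and an otogelin-like gene of the frog Xenopus laevis were followed in tadpole tails under thyroid hormone. The members were selected by symbol, as every probe set whose gene symbol on the array platform begins with lgals, fucolectin or otogl, and this gave 18 probe sets of 15491, in 15 genes. These families were put forward for study because changes of some of their genes in the T3 comparisons below were already known. Their values and calls in those comparisons are therefore given as a description, and no p-value is printed for them. Of the 18 probe sets, 12 read 12 galectin genes, 2 read 2 fucolectin genes and 4 read the single gene otogl2.L. RefSeq's gene table for Xenopus laevis (Xenopus_laevis_v10.1) lists 21 genes whose symbol begins with lgals, and the other galectins were not analysed here. It lists 2 genes whose symbol begins with otogl. Of these, 1 had a probe set, and the other was not analysed.

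RNA came from the tails of tadpoles at stage 54, a stage with little hormone of its own that can still respond to added hormone. The tested tails had been exposed to 20 nM T3 (3,5,3'-triiodothyronine, the active thyroid hormone) for 48 h or for 6 h, and the comparison tails had been kept in vehicle for 48 h. Each group held 3 Affymetrix arrays, each made from a pool of 3 tails, and since clutches and exposure runs are not named, errors and p-values cover the spread among pools, which may be technical. No vehicle group was taken at 6 h, so the length of the exposure differs together with hormone in T3 6 h against vehicle. Between T3 48 h and T3 6 h, time under hormone and time in the container differ together. Fast muscle genes, the marker of tail tissue used here, had 32 probe sets, of which 25 were tested. The list also holds myosins that are not of fast muscle, among them the non-muscle myosins myh9.L and myh10.S and the smooth muscle myosin myh11.S. The summed intensity of all 32 was 6744 to 7941 times the array median at T3 48 h. It was 7137 to 8126 at T3 6 h and 6851 to 7311 in vehicle.

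Galectins are small lectins without a signal peptide that bind galactose-containing sugars on glycoproteins. They are made in the cytosol, leave the cell by an unconventional route, crosslink cell surface and matrix glycoproteins, and in mammalian cells also gather on damaged endosomes and lysosomes, whose inner sugars have become exposed. Fucolectins belong to the F-type lectins, which bind fucose and are known from fish serum. Otogelin-like proteins are large secreted proteins related to gel-forming mucins, and in Xenopus larvae otogelin-like transcripts are found in mucus-secreting goblet cells of the skin. At metamorphosis T3 drives the tail to be resorbed and the larval skin to be remodelled.

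Values are log2 intensities over the median of their array, so that 0 is the array median. A probe set was tested when it reached 0 on at least 3 of the 9 arrays, and 13 of the 18 did, namely 8 galectin, 2 fucolectin and 3 otogl2.L probe sets. Of these 13, lgals1.1.S and lgals9c.L reached the median on 4 arrays each and 1 otogl2.L probe set on 5, so they entered the test through their brighter arrays. Probe sets of different genes bind with different strength, so levels were compared between groups and not between genes. A probe set is said to be called when its adjusted p in the limma fit of all tested probe sets was under 0.05.

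After 48 h of T3, fucolectin.S, lgals3.L and 2 of the 4 probe sets of otogl2.L were lower, and no member was called higher. Of the 13 tested members 4 were called lower, where 6.04% of all tested probe sets were called lower and 4.94% higher. The T3 48 h and vehicle arrays did not overlap for 5 of the 18 probe sets, 4 of them lower and 1 higher at T3 48 h, where 14.2% of all probe sets were lower and 9.02% higher in this way. These calls concern the values by which the families were put forward, and nothing further is read from them. Of the called probe sets, otogl2.L Xl.847.1.S1_s_at passed the level filter through vehicle and T3 6 h arrays alone. The median change of all 18 probe sets was -0.14, and that of all tested probe sets was -0.05. In whole tails, fewer cells of a type and less RNA per cell cannot be told apart.

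**Figure D1:**
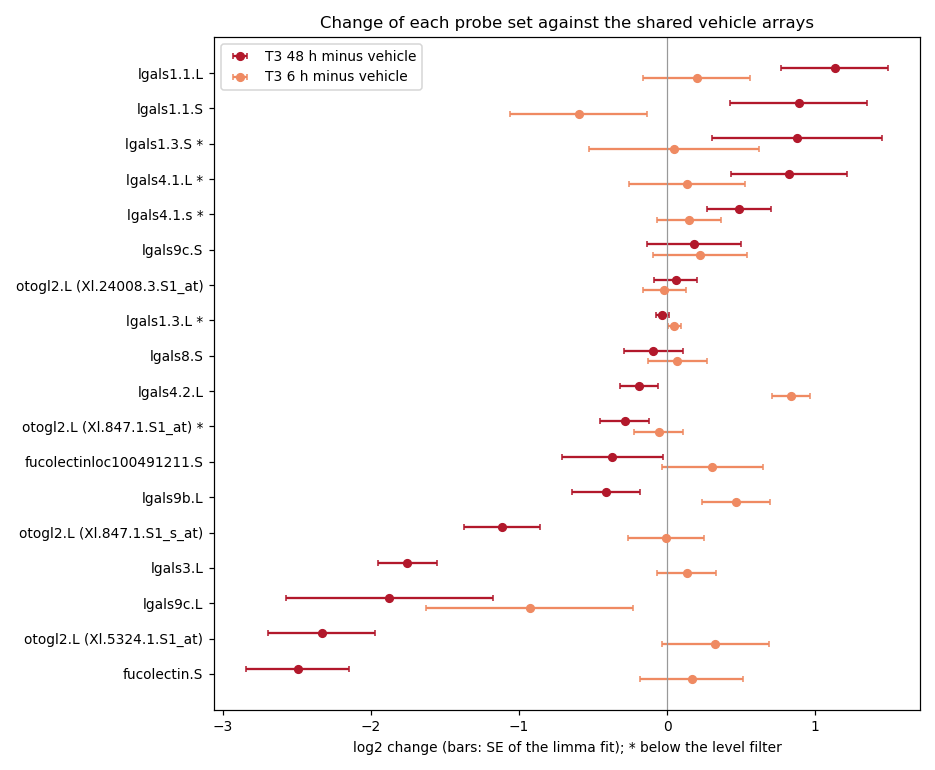
Log2 change (x axis) of each of the 18 probe sets (y axis), with T3 48 h minus vehicle in dark red and T3 6 h minus vehicle in orange, and bars for the SE of the limma fit (n = 3 arrays a group). Both changes use the same vehicle arrays. At 48 h the values run from -2.49 for fucolectin.S to 1.13 for lgals1.1.L, and at 6 h lgals4.2.L lies highest at 0.83.

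Arrays of T3 48 h differed among themselves, and array 1 lay nearest to vehicle in the genes that were lower. This was not particular to these genes. On the first principal component of all tested probe sets, the axis of largest spread, T3 48 h arrays 1, 2 and 3 were at 15.2, 38.8 and 30.6. Vehicle arrays were at -14 to -11.3 on it. Relative to the vehicle mean, fucolectin.S was at -1.59 on T3 48 h array 1 and at -2.94 on arrays 2 and 3. Probe set Xl.5324.1.S1_at of otogl2.L was at -1.46, -2.78 and -2.75 on T3 48 h arrays 1, 2 and 3, and lgals3.L at -1.30, -2.22 and -1.74. Without T3 48 h array 1 the 48 h changes were -2.94 for fucolectin.S, -2.76 for that otogl2.L probe set and -1.98 for lgals3.L. In that fit 2 further galectins, lgals9c.L (-2.67) and lgals1.1.L (1.36), were called. There lgals9c.L reached the array median on vehicle and T3 6 h arrays alone, so its call is no support. The share of all tested probe sets called in that fit is not given here.

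The F-type lectin fucolectin.S had the most negative change of all members at 48 h. Its log2 intensity was 3.60, 2.25 and 2.25 on the T3 48 h arrays, against 5.30, 5.34 and 4.94 on the vehicle arrays. On the T3 6 h arrays it was 4.97, 5.86 and 5.24. All 3 T3 48 h arrays lay below every other array, and the T3 6 h and vehicle arrays overlapped. The level was 5.63-fold lower at T3 48 h than in vehicle (log2 -2.49 ± 0.35 SE, n = 3), and the log2 change at 6 h was 0.17 ± 0.35 SE. It was called lower at 48 h in all 17 alternative settings of the analysis. These settings reuse the same arrays and are no separate support, here and for the genes below.

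The related gene fucolectinloc100491211.S, which lies on the same chromosome with 7 protein-coding genes between them in the RefSeq table, was not called in any comparison. It had log2 intensities of 2.58, 1.87 and 2.26 at T3 48 h, 3.26, 3.21 and 2.27 at T3 6 h and 2.78, 1.92 and 3.11 in vehicle, with all 3 groups overlapping. Its log2 change at 48 h was -0.37 ± 0.34 SE. The difference between the fucolectin genes was not tested.

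For otogl2.L, the otogelin-like gene read here, 2 of the 4 probe sets were called lower at 48 h. The RefSeq table gives it the older names otgn, mlemp and xep-1. Probe set Xl.5324.1.S1_at was at 0.40, -0.91 and -0.89 on the T3 48 h arrays, against 1.95, 1.88 and 1.75 on the vehicle arrays. On the T3 6 h arrays it was at 1.68, 2.83 and 2.04. All T3 48 h arrays lay below the rest, and the level was 5.03-fold lower at T3 48 h than in vehicle (log2 -2.33 ± 0.36 SE, n = 3). Since 2 of its 3 T3 48 h values lay below the array median, the size of this fold depends on the background correction. It reached the array median on every vehicle and T3 6 h array but on T3 48 h array 1 alone of its group, so it passed the level filter mostly through the groups where it was high. This probe set was also called lower in all 17 alternative settings, 1 of them without the level filter.

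Probe set Xl.847.1.S1_s_at of the same gene was at -0.50, -0.77 and -0.68 at T3 48 h, against 0.70, 0.12 and 0.57 in vehicle. It too had T3 48 h arrays below all others, with -0.10, 1.01 and 0.46 at T3 6 h, and its level was 2.17-fold lower at T3 48 h than in vehicle (log2 -1.11 ± 0.26 SE, n = 3). Its call at 48 h was lost without vehicle array 1 (-1.0), vehicle array 3 (-1.06), T3 48 h array 2 (-1.05) or T3 48 h array 3 (-1.10). The suffix of this probe set marks a design that can bind more than 1 transcript. It reached the array median on vehicle and T3 6 h arrays alone, so its call under the level filter is no support. Without that filter it was called as well. Since all 3 T3 48 h values lay below the array median, the size of the fold depends on the background correction.

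The other two probe sets of otogl2.L were not called. Xl.24008.3.S1_at had 1.02, 1.13 and 1.32 at T3 48 h, 1.08, 1.09 and 1.06 at T3 6 h and 1.22, 0.83 and 1.24 in vehicle, with a 48 h change of 0.06 ± 0.14 SE. Xl.847.1.S1_at lay below the array median on all 9 arrays, between -1.19 and -0.98 at T3 48 h, between -0.98 and -0.68 at T3 6 h and between -1.0 and -0.42 in vehicle. The groups overlapped in both probe sets at 48 h against vehicle. Which part of the transcript each probe set reads was not analysed here.

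**Figure D2:**
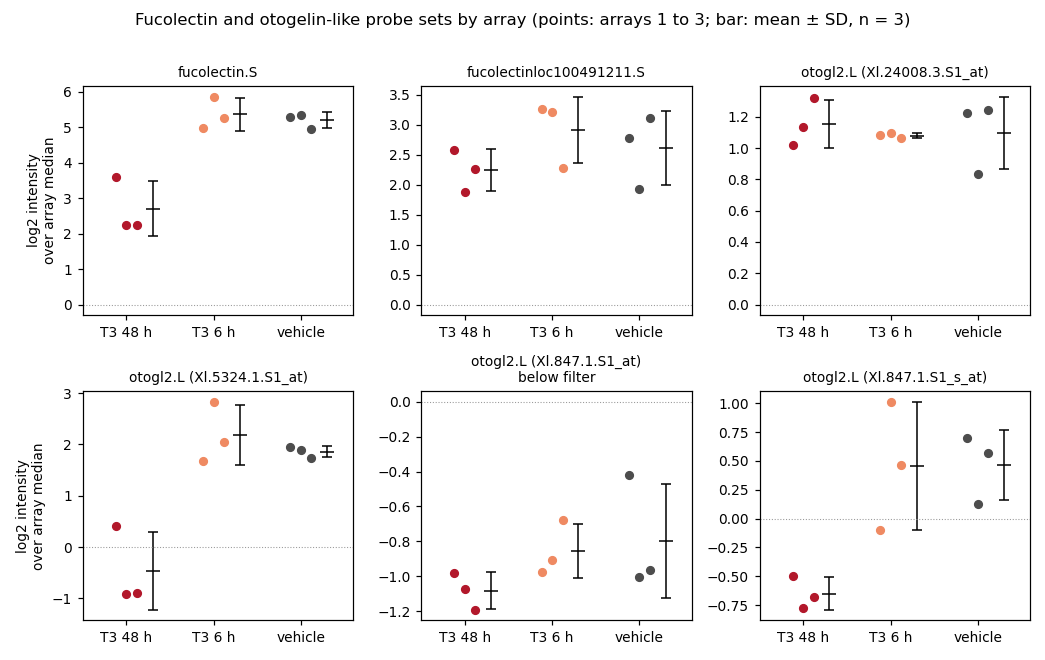
Log2 intensity over the array median (y axis, own scale in each panel) of the 2 fucolectin and 4 otogl2.L probe sets on each array, for T3 48 h, T3 6 h and vehicle (x axis), with the mean ± SD of 3 arrays beside the points. The T3 48 h points of fucolectin.S, otogl2.L Xl.5324.1.S1_at and otogl2.L Xl.847.1.S1_s_at lie below all other arrays, and those of the other 3 probe sets overlap with vehicle.

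The 1 galectin called at 48 h was lgals3.L, galectin-3, which in vertebrates has a single sugar-binding domain joined to a collagen-like tail and is found in epithelia and macrophages of mammals. Its log2 intensity was 4.0, 3.08 and 3.57 on the T3 48 h arrays, against 5.38, 5.32 and 5.21 on the vehicle arrays. On the T3 6 h arrays it was 5.41, 5.59 and 5.32, which overlaps with vehicle. The level was 3.37-fold lower at T3 48 h than in vehicle (log2 -1.75 ± 0.20 SE, n = 3), with no overlap. All 9 arrays lay well above the array median, and lgals3.L was called lower at 48 h in all 17 alternative settings.

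The 1 galectin called at 6 h was lgals4.2.L, a galectin of the type with a pair of sugar-binding domains in 1 chain, known in mammals from gut epithelium. Its log2 intensity was 5.13, 5.28 and 5.27 on the T3 6 h arrays, against 4.41, 4.46 and 4.31 on the vehicle arrays. On the T3 48 h arrays it was 4.01, 4.17 and 4.43. The 3 T3 6 h arrays lay above all others, and the T3 48 h and vehicle arrays overlapped. The level was 1.78-fold higher at T3 6 h than in vehicle (log2 0.83 ± 0.13 SE, n = 3), and the log2 change at 48 h was -0.19 ± 0.13 SE.

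At 6 h lgals4.2.L was the 1 member called of 13 tested, where 0.172% of all tested probe sets were called higher and 0.0492% lower. The T3 6 h and vehicle arrays did not overlap for 2 of 18 probe sets, both higher at T3 6 h (lgals4.2.L and lgals4.1.s), where 11% of all probe sets were higher in this way. The change lay between 0.79 and 0.88 over 17 alternative settings, and the call was lost in 11 of them. It was lost without vehicle array 1 (0.84), 2 (0.86) or 3 (0.79), without T3 6 h array 1 (0.88), 2 (0.81) or 3 (0.81) and without T3 48 h array 2 or 3 (0.83 each). It was also lost without the level filter, under quantile normalization and with the replicate number as a block.

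The neighbouring galectin-4 type gene lgals4.1.L, with 4 protein-coding genes between it and lgals4.2.L in the RefSeq table, lay below the array median on all 9 arrays, at -0.21, -2.22 and -1.61 at T3 48 h, against -2.21, -2.24 and -2.07 in vehicle. The 48 h mean rests on array 1. Its homeolog lgals4.1.s was likewise below the median throughout and had T3 48 h values of -1.02, -2.10 and -1.77, against -2.07, -2.23 and -2.06 in vehicle, with array 1 again the highest. A probe set made for 1 homeolog can bind the other, so these values may not be separate. At T3 6 h both lay between -2.18 and -1.93.

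Galectin-9 type genes, which have a pair of sugar-binding domains, were read by 3 probe sets, none of them called against vehicle. For lgals9b.L the log2 intensity was 4.77, 4.41 and 5.25 at T3 48 h, 5.90, 5.84 and 5.32 at T3 6 h and 4.94, 5.23 and 5.50 in vehicle. Both T3 groups overlapped with vehicle, with changes of -0.41 ± 0.23 SE at 48 h and 0.47 ± 0.23 SE at 6 h. The T3 48 h arrays lay below the T3 6 h arrays, by log2 -0.88 ± 0.23 SE. This call was lost without T3 6 h array 1 (-0.77), T3 6 h array 2 (-0.80) or T3 48 h array 2 (-0.68) and with array weights (-0.55).

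The homeologs lgals9c.L and lgals9c.S had opposite signs at 48 h. lgals9c.L was at 0.20, -2.43 and -1.97 at T3 48 h, -1.40, 0.28 and -0.24 at T3 6 h and -0.22, 1.60 and 0.04 in vehicle. Its change of -1.87 ± 0.70 SE at 48 h had the largest SE of the tested members and was not called with all arrays. lgals9c.S was at 3.71, 3.59 and 4.85 at T3 48 h, 4.02, 4.13 and 4.12 at T3 6 h and 3.98, 3.36 and 4.26 in vehicle, a 48 h change of 0.18 ± 0.32 SE. The difference between the homeologs was not tested.

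Galectin-8, which in human cells marks damaged vesicles for autophagy, was read by lgals8.S. It had log2 intensities between 0.82 and 1.34 at T3 48 h, between 1.17 and 1.40 at T3 6 h and between 0.83 and 1.56 in vehicle. The groups overlapped, and the changes were -0.09 ± 0.20 SE at 48 h and 0.07 ± 0.20 SE at 6 h.

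Galectin-1 type genes, which have 1 sugar-binding domain and form dimers, had the most positive changes of the tested members at 48 h, none of them called with all arrays. lgals1.1.L was at 2.08, 3.22 and 2.31 at T3 48 h, 1.57, 2.12 and 1.13 at T3 6 h and 1.10, 1.07 and 2.05 in vehicle. Every T3 48 h array lay above the vehicle arrays, the lowest of them by a small margin over vehicle array 3. The change was 1.13 ± 0.36 SE.

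Its homeolog lgals1.1.S was at 0.23, 1.66 and 0.89 at T3 48 h, -0.46, -0.51 and -0.70 at T3 6 h and 1.21, -0.52 and -0.57 in vehicle. Vehicle array 1 stood apart from the other vehicle arrays, and T3 48 h and vehicle overlapped (change 0.89 ± 0.46 SE). T3 48 h lay above T3 6 h on every array, by log2 1.48 ± 0.46 SE, with T3 6 h values below the array median. The probe set passed the level filter through the T3 48 h arrays and vehicle array 1, so its call between the T3 groups is no support. That call was lost without T3 6 h array 1 (1.53), 2 (1.51) or 3 (1.41) and without T3 48 h array 2 (1.12) or 3 (1.5). It was also lost with the replicate number as a block, without the level filter and with eBayes without trend.

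In the RefSeq table lgals1.1.S and lgals1.3.S are direct neighbours, and on the other subgenome lgals1.1.L, lgals1.2.L, lgals1.3.L and lgals1.4.L follow each other with no protein-coding gene between them. The lgals1.3 homeologs lay below the array median. lgals1.3.L was between -3.13 and -3.05 at T3 48 h, between -3.03 and -2.99 at T3 6 h and between -3.12 and -2.97 in vehicle. lgals1.3.S was at -2.78, -2.82 and -0.14 at T3 48 h, where array 3 alone was high, against -2.72, -2.84 and -2.81 in vehicle.

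**Figure D3:**
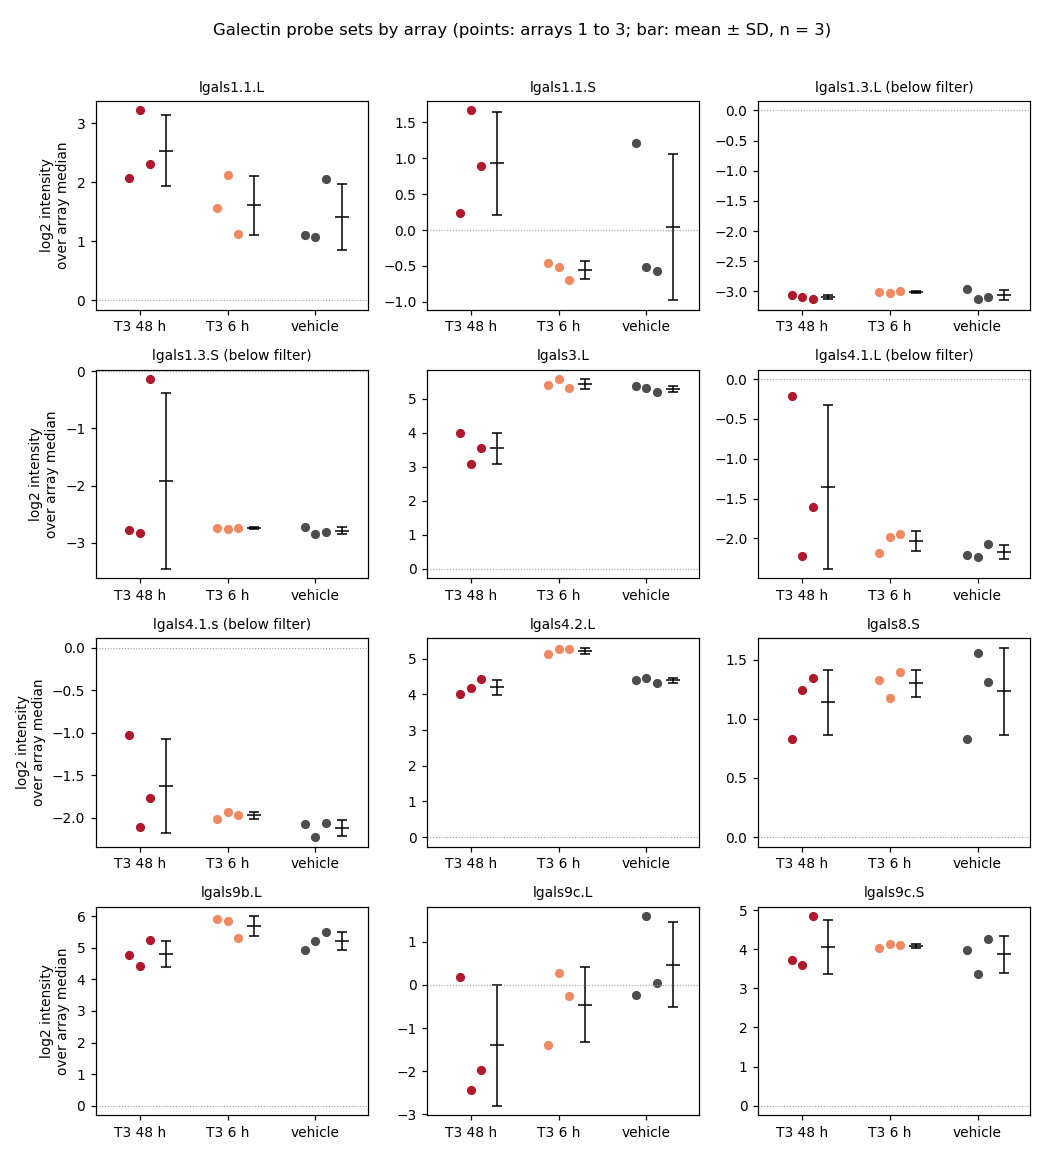
Log2 intensity over the array median (y axis, own scale in each panel, dotted line at 0) of the 12 galectin probe sets on each array, for T3 48 h, T3 6 h and vehicle (x axis), with the mean ± SD of 3 arrays beside the points. lgals3.L is low on all T3 48 h arrays, lgals4.2.L is high on all T3 6 h arrays, and the 4 probe sets below the level filter lie under 0 on every array.

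Between T3 48 h and T3 6 h, 6 of the 13 tested members were called lower and 1 higher, where 11.9% of all tested probe sets were called lower and 7.51% higher. This comparison shares its arrays with both others. The lower members were fucolectin.S (-2.66 ± 0.35 SE), otogl2.L Xl.5324.1.S1_at (-2.65 ± 0.36 SE), lgals3.L (-1.89 ± 0.20 SE), otogl2.L Xl.847.1.S1_s_at (-1.11 ± 0.26 SE), lgals4.2.L (-1.02 ± 0.13 SE) and lgals9b.L. The higher member was lgals1.1.S, which passed the level filter through the T3 48 h arrays and vehicle array 1, so its call is no support. The call of otogl2.L Xl.847.1.S1_s_at was lost without T3 6 h array 3 (-1.11). This probe set passed the level filter through vehicle and T3 6 h arrays alone. Its call under that filter is no support, and it was also called without the filter. lgals4.2.L was 2.03-fold lower at T3 48 h than at T3 6 h.

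The genes most like lgals4.2.L and otogl2.L were ranked by Pearson's r over the 9 arrays. The candidates were 5557 tested probe sets with 1 gene symbol, with the members left out. Since the arrays form 3 groups, the r values mostly reflect the group means. For lgals4.2.L the closest were sqstm1.L (r = 0.983), the autophagy receptor p62, ddah2.L (r = 0.979), of the dimethylarginine hydrolase family, and mrps17.L (r = 0.966), a mitochondrial ribosomal protein. sqstm1.L averaged 5.80 ± 0.15 at T3 6 h, against 4.49 ± 0.10 in vehicle, and 4.22 ± 0.18 at T3 48 h (SD, n = 3 each). The most opposite were snd1.S (r = -0.963), a staphylococcal-nuclease-like protein, and kdm3a.S (r = -0.949), a histone demethylase.

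For otogl2.L, Xl.5324.1.S1_at was taken, its probe set with the highest mean over all arrays. Its r with the member fucolectin.S was 0.996. The closest candidate was LOC398308, a locus symbol with no gene name (r = 0.993). LOC398308 averaged 0.09 ± 1.15 at T3 48 h, against 3.65 ± 0.20 in vehicle (SD, n = 3 each). The next were anxa7.L (r = 0.985), an annexin, and dhodh.L (r = 0.984), an enzyme of pyrimidine synthesis, with changes at 48 h of -0.52 ± 0.11 SE and -0.28 ± 0.12 SE. The most opposite were znf182 (r = -0.979), a zinc finger gene, and glb1.L (r = -0.978), the lysosomal galactosidase that removes galactose from glycans, which averaged 4.36 ± 0.40 at T3 48 h, against 2.15 ± 0.27 in vehicle (SD, n = 3 each).

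Genes that make or carry the sugars these lectins bind were counted from lists. Each count at 48 h, here and on all lists below, stands beside 4.94% higher and 6.04% lower of all tested probe sets. A single call on a short list is not read as a change of that list. The lists were chosen with earlier results of these data known. Their calls and adjusted p-values are therefore a description and not independent tests. On the list of glycoproteins that galectins bind and enzymes of N-glycan branching, 5 of 22 tested probe sets rose at 48 h and 0 fell, with a median change of 0.30, against -0.05 over all tested probe sets. They were 1 of 2 tested probe sets of the integrin subunit itgb1.L (0.73 ± 0.18 SE, adjusted p = 0.0323 in limma) and its homeolog itgb1.S (0.65 ± 0.17 SE, adjusted p = 0.0363), 2 of 4 tested probe sets of fibronectin fn1.S (0.67 and 0.60, the others 0.39 and 0.12), and the lysosomal membrane protein cd63.L (0.53), so none was a branching enzyme. The homeolog cd63.S was not called (0.13 ± 0.14 SE), and cd63.L kept its call in 2 of 9 fits without 1 array. Leaving out vehicle array 1, 2 or 3 or T3 48 h array 2 gave a count of 0. The fit lacking T3 48 h array 3 called 2, and that lacking T3 48 h array 1 called 8. That lacking T3 6 h array 1 called 3, and the fit with no level filter called 1. The share of all tested probe sets called in each of these fits is not given here. These counts are therefore not read as a trait of this list. On the list for fucose, 1 of 7 fell. This was gmds.L, the enzyme that starts GDP-fucose synthesis, at 0.50 ± 0.33 in T3 48 h tails, against 2.04 ± 0.22 in vehicle tails (SD, n = 3; log2 change -1.54 ± 0.25 SE, adjusted p = 0.00671 in limma). It was called in all 9 fits without 1 array, with changes of -1.72 to -1.40.

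Among galectin partners at damaged lysosomes, 3 of 22 rose at 48 h and 0 fell, against 4.94% and 6.04% of all tested probe sets. These were 1 of 4 tested probe sets of atg16l1.L (1.92 ± 0.28 SE), gabarapl1.S (0.93 ± 0.22 SE) and the transcription factor tfe3.S (0.45 ± 0.13 SE), with adjusted p-values of 0.00464, 0.0276 and 0.0488 in limma. The other 3 tested probe sets of atg16l1.L were not called, at -0.16, 0.07 and 0.40, so the probe sets of this gene disagree. The 1 higher probe set of atg16l1.L was called in all 9 fits without 1 array, gabarapl1.S in 4 and tfe3.S in 1, and the count without the level filter was 1. At 6 h sqstm1.L was the 1 called member of that list, higher by 1.31 ± 0.13 SE (adjusted p = 0.0103 in limma). Of all tested probe sets, 0.172% were called higher at 6 h. The call of sqstm1.L was lost without vehicle array 1 or 2 or T3 6 h array 1. The other lectins had 0 of 4 tested probe sets called. The intelectin itln1.L, which marks goblet cells of Xenopus larval skin, lay below the filter at -2.58, -2.34 and -2.51 on average at T3 48 h, T3 6 h and in vehicle.

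Of 3 tested probe sets for mucus and gel-forming proteins, agr2.S fell (-1.24 ± 0.30 SE, adjusted p = 0.0317 in limma). agr2 encodes a folding enzyme of the endoplasmic reticulum needed for mucin production in mice. Its homeolog agr2.L was at -1.03 ± 0.33 SE (adjusted p = 0.0673). The call of agr2.S was lost without the level filter, without any of the vehicle arrays and without T3 48 h array 2 or 3, with changes of -1.35 to -1.16.

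On the list of keratins and other larval skin genes, 13 of 36 tested probe sets fell at 48 h, 1 was called higher and the rest were not called, with a median change of -0.59. The larval gene thdl17.L was at -3.28 ± 0.68 SE (adjusted p = 0.018 in limma). The keratin krt12.4.L was at -3.15 ± 0.32 SE, and averaged -1.89 ± 0.10 at T3 48 h (SD, n = 3). Its homeolog krt12.4.S, also called lower, averaged -1.50 ± 0.14 there. Both passed the level filter through T3 6 h and vehicle arrays, where they were high. These calls, both among the 13, are therefore no support. The keratin krt78.6.L was higher by 3.51 ± 0.39 SE. It passed the level filter through the T3 48 h arrays, where it was high (1.55 ± 0.85 at T3 48 h, against -1.97 ± 0.35 in vehicle, SD, n = 3 each), so its call is no support. Leaving out vehicle array 1 or 2 or T3 48 h array 2 gave 5 lower, and leaving out vehicle array 3 or T3 48 h array 3 gave 8. The share of all tested probe sets called is not given for fits without 1 array. krt12.4.L, under the limit given above, was called in all 9 such fits, and thdl17.L in 4. The summed intensity of the 49 probe sets on that list was 699.8 to 1025 times the array median at T3 48 h, 1552 to 1810 at T3 6 h and 1436 to 1541 in vehicle, so the T3 48 h arrays lay below all others. The part of this shift in the lower values of fucolectin.S, lgals3.L and the 2 otogl2.L probe sets was not tested.

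Other cell types were counted in the same way. Ionocyte markers had 0 of 4 tested probe sets called at 48 h. Their summed intensity was 39.4 to 50.2 at T3 48 h, 30.0 to 34.7 at T3 6 h and 29.3 to 32.1 in vehicle. The brightest probe sets read the proton pump genes atp6v1a.L (4.26 at T3 48 h, 3.82 in vehicle) and atp6v0d1.L (3.83 and 3.31). The tested probe sets read only these genes and ca2.L. The factor foxi1.L, ca12.L, ubp1.L and atp6v1b1.L lay below the filter, so the sums are not read as a change of ionocytes. Multiciliated cell markers had 1 of 8 lower, the tubulin tubb4b.S (-0.98 ± 0.16 SE, adjusted p = 0.00792 in limma, called in all 9 fits without 1 array). Its homeolog tubb4b.L was not called (-0.28 ± 0.16 SE) and was the brightest probe set (4.69 at T3 48 h, 4.97 in vehicle). The tested probe sets read only tubb4b and cfap genes. The genes ccno.L, dnai1.L, dnah9.S, rfx2.S, spag6.L, tekt1.L, tekt2.L and tekt2.S lay below the filter. Sums for this list were 47.7 to 51.6 at T3 48 h, 63.9 to 83.4 at T3 6 h and 52.8 to 64.1 in vehicle, and are not read as a change of these cells. Leukocyte markers had 1 of 9 higher, the chemokine receptor cxcr4.L (0.77 ± 0.17 SE), with sums of 40.3 to 96.7, 47.8 to 51.9 and 45.3 to 57.7 in the same order. cxcr4.L passed the level filter through the T3 48 h arrays, where it was high (0.67 ± 0.28 at T3 48 h, against -0.10 ± 0.03 in vehicle, SD, n = 3 each), so its call is no support, and its homeolog cxcr4.S was not called (-0.13 ± 0.25 SE). Red blood cell genes had 0 of 5 called and sums of 341.7 to 598.7, 433.1 to 776.8 and 308.8 to 375.7.

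The 1 probe set for basal epidermis, tp63.L, and all 3 for small secretory cells lay below the filter. The 1 probe set called on the fast muscle list was myh9.L, a non-muscle myosin that rose by 0.67 ± 0.17 SE and was called in 4 of 9 fits without 1 array. Apart from sqstm1.L, no tested probe set of these lists was called at 6 h. Of all tested probe sets, 0.172% were called higher and 0.0492% lower at 6 h. The part of any of these cell types in the members' values was not tested.

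**Figure D4:**
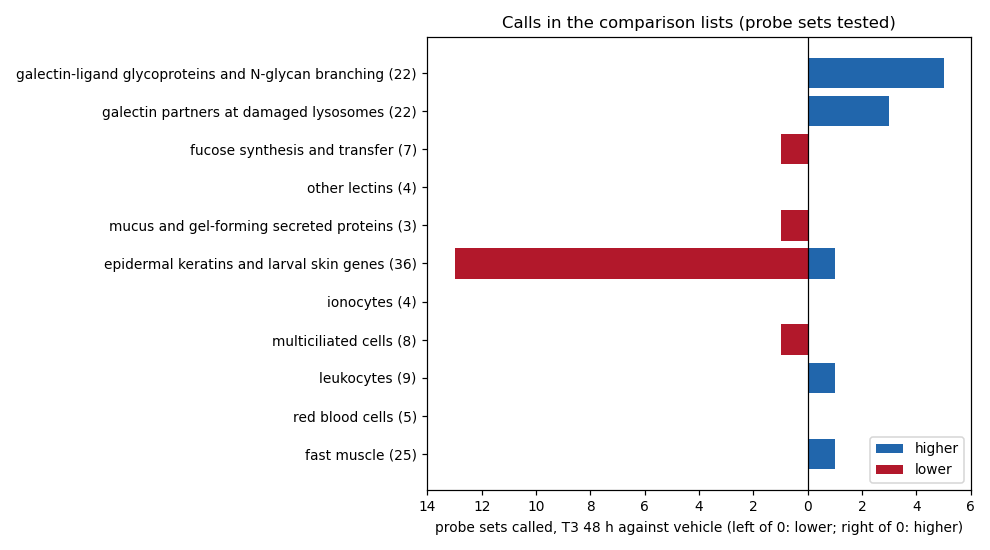
Number of probe sets called at an adjusted p under 0.05 in limma for T3 48 h against vehicle (x axis), by comparison list (y axis, tested probe sets in brackets), with higher at T3 48 h to the right of 0 in blue and lower to the left in red. The keratin and larval skin list has 13 lower and 1 higher, and the galectin-ligand list has 5 higher.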

How the data were processed

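The deposited values were intensities on a linear scale, made by the authors with GCRMA per the submitters' processing notes, with version and further steps not given in the sources used here. Each of the 9 deposited columns has a median of 1. Log2 was taken, 120 of 15611 probe sets were left out as controls, and 8123 with log2 of at least 0 on at least 3 arrays were tested. limma 3.58.1 in R 4.3.3 fitted group on all 9 arrays (eBayes with trend, two-sided, Benjamini-Hochberg over all tested probe sets, called under 0.05), after a check on simulated data. Members below the filter take values from the fit without it. The files hold no detection calls, so folds of probe sets below the array median depend on the background correction. The number of arrays limits the precision. Symbols came from the platform annotation and, by gene ID, from RefSeq, which matched all 18 members. Members, lists and tests were chosen with earlier results of these data known. From each list, up to 3 called probe sets with the largest change at 48 h were named, and up to 2 at 6 h. Named after their values were seen were itln1.L, agr2.L, cd63.L, cd63.S, krt12.4.S, tp63.L, foxi1.L, cxcr4.S, tubb4b.L and further fn1.S and atg16l1.L probe sets. The further ionocyte and multiciliated cell genes, and myh10.S and myh11.S, were also named after their values were seen. Same-numbered arrays of different groups were not paired, since their deviations from the group means correlated at -0.133 to 0.103. Alternatives were other filters, normalizations, weights, fits on 2 groups, a replicate block and leaving out each array.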

Additional observations from a re-analysis of the deposited data

Results flagged for a closer look

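For 7 probe sets the changes at 48 h and at 6 h, both against the same vehicle arrays, differed from each other in limma, which is the comparison of T3 48 h with T3 6 h. In that comparison 11.9% of all tested probe sets were called lower and 7.51% higher, and the members' values are a description. The difference (log2, T3 48 h minus T3 6 h) was -2.66 for fucolectin.S, -2.65 for otogl2.L Xl.5324.1.S1_at, -1.11 for otogl2.L Xl.847.1.S1_s_at, -1.89 for lgals3.L, -1.02 for lgals4.2.L, -0.88 for lgals9b.L and 1.48 for lgals1.1.S. The call was kept in 8 of 16 alternative settings for lgals1.1.S, 13 of 17 for lgals9b.L and 15 of 16 for otogl2.L Xl.847.1.S1_s_at. The others kept theirs in all 17. lgals1.1.S passed the level filter through the T3 48 h arrays and vehicle array 1, so its call is no support. otogl2.L Xl.847.1.S1_s_at passed it through vehicle and T3 6 h arrays alone, so its call under that filter is no support. Tails of T3 48 h and T3 6 h also differed in time in the container, and the part of that time cannot be told apart from that of the hormone.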

How the results depend on the processing

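With all arrays 4 members were called for T3 48 h and 1 for T3 6 h, each against vehicle, and 7 between the T3 groups. With the replicate number as a block these counts were 4, 0 and 6. For T3 6 h against vehicle the count was also 0 without the level filter and under quantile normalization, and 0 to 1 when each array was left out in turn. The cause was not tested. The counts without 1 array were 3 to 6 for T3 48 h against vehicle and 5 to 7 for T3 48 h against T3 6 h, and array weights gave 6 for the first of these. No called change turned its sign in any setting. At a filter of log2 1, lgals1.1.S, lgals9c.L and otogl2.L Xl.847.1.S1_s_at were not tested and have no value. Without the level filter the called probe sets on the list of galectin ligands were 1 in place of 5, at damaged lysosomes 1 in place of 3, and on the mucus and fast muscle lists 0 in place of 1, with more probe sets in the adjustment. Centring gave 1 ionocyte call in place of 0, and leaving out each array, a setting added for the lists after seeing the data, gave 0 to 3, as well as 0 to 1 for other lectins at 48 h and for red blood cells at 6 h. For these alternative settings the share of all tested probe sets called is not given here. A gain or loss of calls in them is therefore not read as a trait of the members or of a list. Low intensities and 3 arrays a group limit what can be seen.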
